A study of Sus scrofa domesticus with 6 samples.

Results

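The genes studied here encode the machinery of mitosis: motor kinesins of the spindle, centromere and kinetochore proteins, the spindle checkpoint, the kinases and cyclins of mitotic entry, condensin, and factors of chromatid separation and cytokinesis. They were chosen by name, as the rows of the deposited table whose gene name belongs to one of these families, and 58 of 25322 rows matched. This choice, and that of the related lists below, was made with earlier results of these data known. Genes of these families whose row carries no such name are not among them. The measurement is RNA sequencing of the mandibular condyle, where the lower jaw meets the skull, in miniature pig embryos (Sus scrofa domesticus in the labels). Embryos of 85 days gave 3 libraries, and they were set against 3 libraries from embryos of 45 days. All libraries carry the tissue label cartilage and the source label chondrocytes and osteocytes, and the treatment field reads osteogenesis of cartilage at both ages, with no genotype or agent. The labels do not say that every library came from its own embryo, and a p-value here speaks only of how these libraries vary. The comparison asks how the condyle's gene expression differs between an early and a later stage of its ossification.

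In mitosis, cyclin B with the kinase CDK1 drives entry, condensin compacts the chromosomes, and kinesins build the spindle. Kinetochores assembled on centromeres attach each chromosome to spindle microtubules, and the checkpoint holds back chromatid separation until all are attached. Many of these genes are transcribed mainly in late S, G2 and M phase, so their RNA in a tissue is widely used as a sign of dividing cells. Roles named here are those described for human or mouse proteins. In growing cartilage such cells lie mainly in the proliferative layers, above the cells that enlarge and mineralize.

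Levels are CPM, counts scaled to a common library size after TMM scaling, a normalization that uses the bulk of the genes. Fold changes have day 85 as numerator, on the log2 scale with a standard error (SE), and n = 3 libraries for each age throughout. Tests are edgeR's quasi-likelihood tests, and adjusted p-values are Benjamini-Hochberg values over all 15022 genes tested, and a gene is said to have risen or fallen where this was under 0.05. Total counts ran from 12546729 to 16559616 per library. All 58 genes passed the filter on low counts, and the fewest counts for any of them in a library were 15.

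Transcripts of the mitotic machinery were scarcer in the day 85 condyles. Of the 58 genes, 25 fell and 0 rose, by 1.48-fold to 2.57-fold in those that fell. Among all tested genes 2.66% fell and 3.9% rose. The median log2 fold change of the 58 was -0.86, a 1.82-fold difference, against 0.02 for all tested genes, and 56 of the 58 had a negative sign, against 48.2% of all. In 51 of the 58 every day 85 library lay below every day 45 library, which held for 17.6% of all tested genes. At an unadjusted p under 0.05, 51 were lower and 0 higher, against 13.3% lower among all. DESeq2 called 49 lower and 0 higher, against 10.5% and 12.2% of all genes. In a bulk sample fewer dividing cells and less of these RNAs in each dividing cell cannot be told apart.

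The 58 genes together took 0.144%, 0.169% and 0.141% of all counts in day 85 replicates 1, 2 and 3, against 0.256%, 0.25% and 0.292% in the day 45 libraries. As a geometric mean over the genes, their level was 49%, 66.6% and 52.4% of the day 45 mean in the day 85 libraries, against 99%, 98% and 102% in the day 45 libraries. Day 85 replicate 2 thus stood nearest to day 45. It was the highest day 85 library for 53 of the 58 genes, against 44.4% of all tested genes.

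The number of genes past the threshold rests on which libraries are kept. Without day 85 replicate 2, 50 of the 58 fell and 0 rose, against 10% and 12.3% of all genes, and the median log2 fold change was -1.03. Without day 85 replicate 3, NUF2 alone fell (adjusted p = 0.0485), where 0.164% of all genes fell. With day 85 replicate 1, or day 45 replicate 1, 2 or 3, left out, 0 of the 58 passed in edgeR, and 0.0196%, 0%, 0% and 0.0391% of all genes fell. In those 5 fits 48 to 50 of the 58 were lower at an unadjusted p under 0.05, and their median lay between -0.92 and -0.78. The share of all genes at that level was 9.39% without day 85 replicate 3, 11.3% without day 85 replicate 1, and 9.28%, 8.66% and 11.6% without day 45 replicates 1, 2 and 3. With RLE scaling, library totals as the only scaling and no filter on low counts, 31, 34 and 32 of the 58 fell, where 2.98%, 3.98% and 2.26% of all genes did. Among all genes 598 fell and 437 rose with library totals, against 400 and 586 with TMM.

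**Figure D1:**
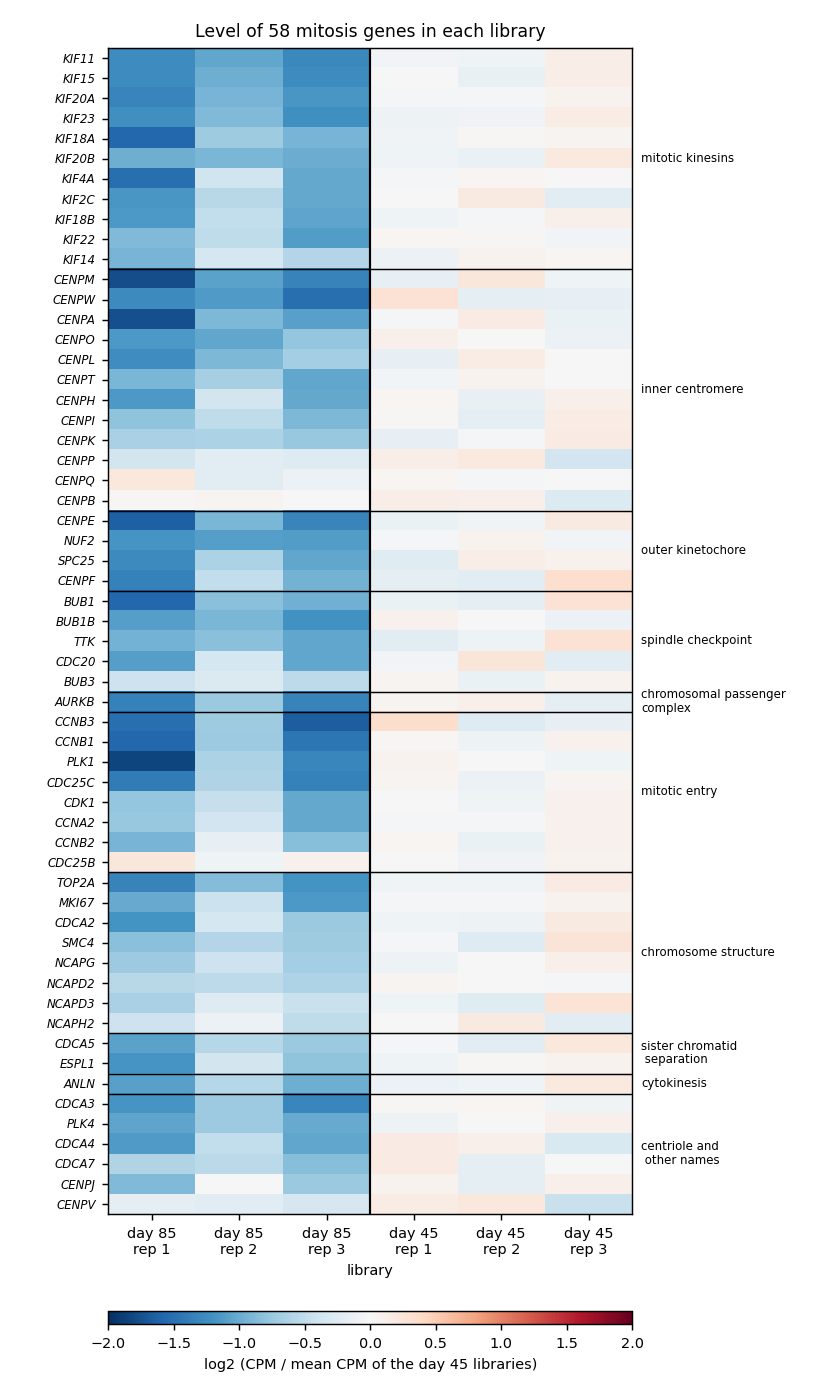
Level of each of the 58 mitosis genes (rows, grouped by role) in each library (columns), as log2 of its CPM over the mean CPM of the day 45 libraries. Blue marks levels below that mean: 51 rows are lower in all 3 day 85 libraries than in any day 45 library, and the column of day 85 replicate 2 is the palest of its age.

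The mitotic kinesins were lower throughout. All 11 had lower levels in every day 85 library than in any day 45 library, against 17.6% of all tested genes. Their log2 fold changes ran from -1.19 to -0.6 with a median of -0.96. Of the 11, 7 fell, against 2.66% of all genes. KIF11, the motor that pushes the spindle poles apart, had 19.6, 22.9 and 19.1 CPM in the day 85 libraries, against 44.8, 44.0 and 51.6 CPM in the day 45 libraries. The gap between the ages was wide and the day 85 values close, and KIF11 fell 2.28-fold (log2 fold change -1.19, SE 0.13, adjusted p = 0.0167). KIF15, which backs up KIF11 in keeping the spindle bipolar, had 18.2, 22 and 18.1 CPM at day 85, against 43.3, 39.0 and 47.5 CPM at day 45, and fell 2.23-fold (log2 fold change -1.16, SE 0.14, adjusted p = 0.0181). KIF20A, a motor of the central spindle needed for cytokinesis, had 53.6, 69.9 and 59.9 CPM at day 85, against 131, 130.2 and 139.8 CPM at day 45, without overlap, and fell 2.19-fold (log2 fold change -1.13, SE 0.13, adjusted p = 0.0178).

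KIF23, the centralspindlin motor, KIF20B, another cytokinesis kinesin, the microtubule depolymerase KIF2C and the chromosome-arm motor KIF22 also fell, 2.14-fold, 1.95-fold, 1.85-fold and 1.76-fold. The other 4 did not pass: KIF18A (log2 fold change -1.02, SE 0.25), KIF4A (-0.90, SE 0.27), KIF18B (-0.86, SE 0.20) and KIF14 (-0.60, SE 0.19). KIF4A, a motor that binds chromosome arms, varied between the day 85 libraries, with 15, 32.4 and 20.8 CPM, against 41.6, 43.6 and 42.5 CPM at day 45. All 11 kinesins fell without day 85 replicate 2, and in DESeq2 on all libraries, against 10% and 10.5% of all genes. Without each of the other libraries in turn none passed in edgeR, the smallest adjusted p being 0.0502.

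**Figure D2:**
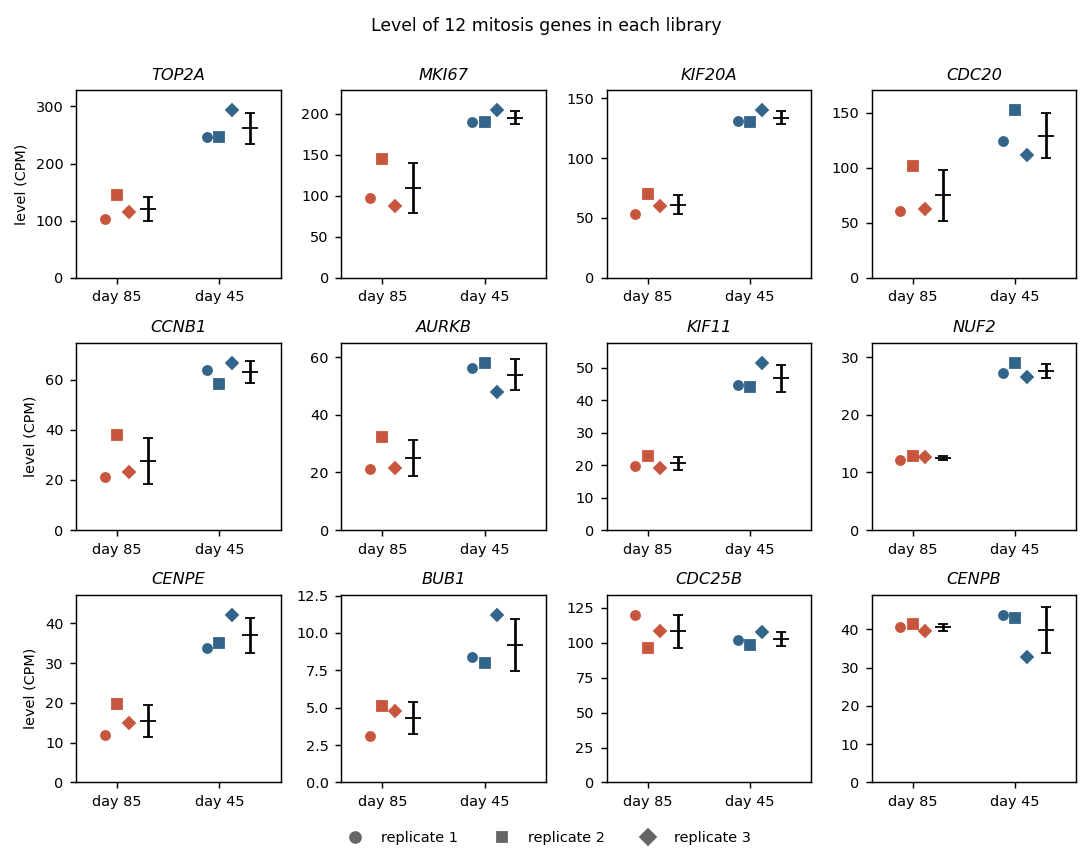
Level in CPM (vertical axes, from 0) of 12 mitosis genes in each day 85 and day 45 library, with the mean and SD of each age in black. In 10 panels the day 85 points lie below all day 45 points; in those of CDC25B and CENPB the ages overlap.

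At the kinetochore the outer, microtubule-binding part was lower throughout. NUF2, a subunit of the NDC80 complex that grips microtubule ends, had 12.1, 12.8 and 12.7 CPM in the day 85 libraries, against 27.2, 29.0 and 26.6 CPM in the day 45 libraries. These day 85 values were nearly identical, and NUF2 had the smallest adjusted p of the 58 genes (2.20-fold, log2 fold change -1.14, SE 0.12, adjusted p = 0.0160). CENPE, the kinetochore motor that carries chromosomes to the spindle equator, had 11.9, 19.7 and 14.8 CPM at day 85, against 33.8, 35.1 and 42.1 CPM at day 45. It fell 2.39-fold (log2 fold change -1.25, SE 0.21, adjusted p = 0.0287). SPC25, another NDC80 complex subunit, had 8.89, 13.9 and 10.5 CPM at day 85, against 18.1, 23.5 and 22.8 CPM at day 45, and fell 1.93-fold (adjusted p = 0.0465).

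CENPF, a large protein of the kinetochore's outer corona, had 21.6, 39.3 and 28.7 CPM at day 85, against 48.4, 47.6 and 69.6 CPM at day 45. The ages did not overlap but the spread within each was large, and CENPF did not pass (log2 fold change -0.88, SE 0.26, adjusted p = 0.0836). So 3 of the 4 genes of this group fell, against 2.66% of all tested genes. All 4 did without day 85 replicate 2, against 10% of all genes. Without each of the other libraries NUF2 alone passed, and only without day 85 replicate 3.

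Of 12 inner centromere genes 4 fell, against 2.66% of all tested genes, with a median log2 fold change of -0.83. In 9 every day 85 library lay below day 45, against 17.6% of all genes, and 3 showed overlapping ages. The difference from the outer part was not tested. CENPM, a subunit of the constitutive centromere network, had 5.10, 8.27 and 6.86 CPM in the day 85 libraries, against 15.4, 20.3 and 16.4 CPM in the day 45 libraries. Its 2.57-fold fall was the largest among the 58 genes (log2 fold change -1.36, SE 0.22, adjusted p = 0.0282). CENPW and CENPT, histone-fold proteins that sit together on centromeric DNA, fell 2.46-fold and 1.82-fold (adjusted p = 0.0332 and 0.0247). CENPW had 2.78, 3.07 and 2.37 CPM at day 85, against 8.27, 5.99 and 6.02 CPM at day 45, and CENPT had 28.6, 34.0 and 26.4 CPM at day 85, against 52.1, 56.5 and 53.6 CPM at day 45. CENPO fell 1.97-fold (adjusted p = 0.0267), with 10.3, 11.1 and 13.5 CPM at day 85, against 24.6, 22.9 and 21.1 CPM at day 45.

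The remaining members of this group did not pass, and those given library values here were picked after their values were seen. CENPL, CENPH, CENPI and CENPK, whose ages did not overlap, had log2 fold changes of -0.91, -0.80, -0.73 and -0.68. Their adjusted p-values were 0.0833, 0.0841, 0.0574 and 0.0623. CENPA, the histone H3 variant that marks the centromere, had 1.70, 3.07 and 2.70 CPM at day 85, against 5.57, 6.42 and 5.23 CPM at day 45, just outside the threshold (log2 fold change -1.20, SE 0.27, adjusted p = 0.0507). By contrast CENPB, which binds a motif in centromeric satellite repeats, had 40.5, 41.4 and 39.6 CPM at day 85, against 43.7, 42.8 and 32.8 CPM at day 45, with overlapping ages (log2 fold change 0.03, SE 0.14). CENPQ, a partner of CENPO in one centromere subcomplex, overlapped as well, with 18.3, 13.7 and 14.6 CPM at day 85, against 16.3, 15.6 and 15.7 CPM at day 45, a log2 fold change of -0.03 (SE 0.16). CENPP, of the same subcomplex, had log2 fold change -0.28 with an SE of 0.25. Of the 12 genes 8 fell without day 85 replicate 2, against 10% of all genes, and CENPB, CENPQ, CENPP and CENPL did not. Without each other library none passed in edgeR, the smallest adjusted p being 0.0510.

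Spindle checkpoint genes were lower in all day 85 libraries than in any day 45 library, for 5 of 5 genes, against 17.6% of all tested genes. Of the 5, 2 fell, against 2.66% of all genes. BUB1B, which encodes the checkpoint protein BUBR1, had 10.2, 11.6 and 9.50 CPM at day 85, against 23.4, 22.1 and 20.2 CPM at day 45, a 2.10-fold fall (log2 fold change -1.07, SE 0.15, adjusted p = 0.0206). The kinase TTK, also called MPS1, which starts checkpoint signalling, had 4.25, 4.60 and 4.02 CPM at day 85, against 7.04, 7.65 and 10.01 CPM at day 45 and fell 1.92-fold (adjusted p = 0.0483). BUB1, a kinase that recruits other checkpoint proteins to kinetochores, had 3.09, 5.13 and 4.75 CPM at day 85, against 8.39, 8.01 and 11.2 CPM at day 45, and did not pass (log2 fold change -1.08, SE 0.26, adjusted p = 0.0566).

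CDC20, the activator of the anaphase-promoting complex that the checkpoint restrains, had 60.5, 101.6 and 62.6 CPM at day 85, against 124.5, 152 and 111 CPM at day 45, where the day 85 values split between replicate 2 and the others, and it did not pass (log2 fold change -0.79, SE 0.24, adjusted p = 0.0891). BUB3, a partner of BUB1 and BUBR1 that is also used outside the checkpoint, had the smallest difference of the group (log2 fold change -0.40, SE 0.12, adjusted p = 0.0862). All 5 fell without day 85 replicate 2 and in DESeq2, against 10% and 10.5% of all genes. Without each other library none passed in edgeR, the smallest adjusted p being 0.0533.

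**Figure D3:**
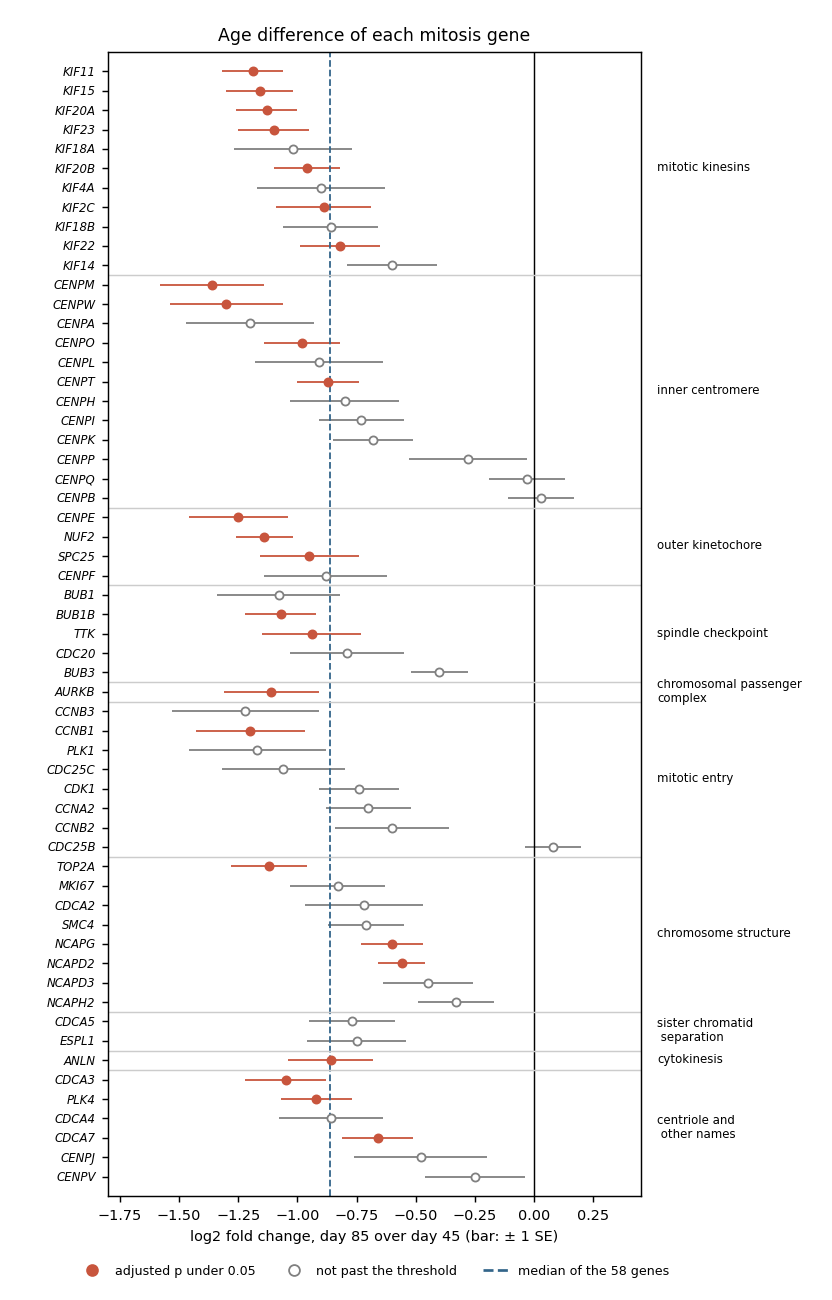
Log2 fold change, day 85 over day 45, of each mitosis gene by role, with bars of ± 1 SE; filled points have an adjusted p under 0.05 and the dashed line is the median of the 58 genes, -0.86. CENPB and CDC25B lie at 0.03 and 0.08, to the right of 0, and CENPM lies farthest to the left at -1.36.

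Among the genes of mitotic entry 1 of 8 fell, against 2.66% of all tested genes, and this was CCNB1, cyclin B1. It had 21.2, 38.0 and 23 CPM in the day 85 libraries, against 63.9, 58.4 and 66.7 CPM in the day 45 libraries, a 2.30-fold fall (log2 fold change -1.20, SE 0.23, adjusted p = 0.0379). Its kinase partner CDK1 had 16.8, 20.8 and 14.1 CPM at day 85, against 28.8, 27.1 and 30.4 CPM at day 45, just outside the threshold (log2 fold change -0.74, SE 0.17, adjusted p = 0.0517). Cyclin A2, CCNA2, which acts from S phase to early mitosis, had 30.7, 40 and 25.5 CPM at day 85, against 50.4, 50.6 and 55.0 CPM at day 45, a log2 fold change of -0.70 (SE 0.18, adjusted p = 0.0636). Both were lower in every day 85 library. PLK1, the polo kinase of mitosis, had 8.89, 20.5 and 12.8 CPM at day 85, against 33.3, 31.9 and 29.8 CPM at day 45, with replicate 2 the highest of its age, and was outside the threshold (log2 fold change -1.17, SE 0.29, adjusted p = 0.0605).

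The CDC25 phosphatases, which remove the inhibitory phosphates of CDK1, differed in sign. CDC25B had 119.7, 96.3 and 109 CPM at day 85, against 102, 98 and 108 CPM at day 45, with fully overlapping ages (log2 fold change 0.08, SE 0.12, adjusted p = 0.707). CDC25C had 3.40, 5.93 and 3.50 CPM at day 85, against 9.31, 8.22 and 9.36 CPM at day 45, and did not pass (log2 fold change -1.06, SE 0.26, adjusted p = 0.0602). The ratio of CDC25C to CDC25B counts, which needs no scaling between libraries, was 0.0284, 0.0616 and 0.0322 in the day 85 libraries, against 0.0911, 0.0839 and 0.087 in the day 45 libraries. The count ratio of CCNB1 to CCNA2 was 0.69, 0.95 and 0.902 at day 85 and 1.27, 1.16 and 1.21 at day 45. The count ratio of PLK1 to CDK1 was 0.53, 0.984 and 0.907 at day 85 and 1.15, 1.18 and 0.981 at day 45. The first 2 ratios did not overlap between the ages and the last did, and all 3 were picked after the values were seen and not tested. Of the 8 genes 7 fell without day 85 replicate 2, against 10% of all genes. The exception was CDC25B, whose sign turned to -0.02 without day 85 replicate 1. Without each other library none passed in edgeR, the smallest adjusted p being 0.0823.

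AURKB, the kinase of the chromosomal passenger complex that corrects faulty attachments, had 21.3, 32.2 and 21.5 CPM at day 85, against 56.1, 58.1 and 47.8 CPM at day 45, with no overlap. It fell 2.16-fold (log2 fold change -1.11, SE 0.20, adjusted p = 0.0316), also without day 85 replicate 2 (adjusted p = 0.00252), and did not pass without each other library (0.0700 to 0.129).

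Of 8 genes of chromosome structure 3 fell, against 2.66% of all tested genes. TOP2A, the topoisomerase that untangles sister chromatids, had 103, 144 and 115 CPM at day 85, against 247, 246 and 293 CPM at day 45. It fell 2.17-fold (log2 fold change -1.12, SE 0.16, adjusted p = 0.0227). The condensin I subunits NCAPD2 and NCAPG fell 1.48-fold and 1.51-fold (adjusted p = 0.0334 and 0.0485). NCAPD2 had 81.9, 84.1 and 78.4 CPM at day 85, against 124.5, 119 and 117 CPM at day 45, a small difference with an SE of 0.10, and NCAPG had 30.0, 37.3 and 31.0 CPM at day 85, against 46.0, 49.6 and 53.1 CPM at day 45. MKI67, the Ki-67 protein that coats mitotic chromosomes and is the standard marker of proliferation, had 96.9, 144 and 87.8 CPM at day 85, against 190.5, 190.1 and 204 CPM at day 45. Its ages did not overlap and it stood just outside the threshold (log2 fold change -0.83, SE 0.20, adjusted p = 0.0566).

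The condensin II subunits NCAPD3 and NCAPH2 had the smallest differences of this group, with log2 fold changes of -0.45 (SE 0.19) and -0.33 (SE 0.16), and the ages overlapped for NCAPH2. Neither passed without day 85 replicate 2, where the other 6 genes of the group fell, against 10% of all genes. Among the condensin rows named only by ID, described further on, the condensin II subunit NCAPG2 had -0.69 and the condensin I subunit NCAPH -0.55. The difference between the condensins was not tested. Without each other library none of the 8 passed in edgeR, the smallest adjusted p being 0.0593.

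Among the remaining genes, ESPL1, the separase that cleaves cohesin at anaphase, had 18.9, 33.3 and 24.5 CPM at day 85, against 40.4, 43.4 and 44.8 CPM at day 45, and did not pass (log2 fold change -0.75, SE 0.21, adjusted p = 0.0765). CDCA5, the cohesin protector sororin, did not pass either (adjusted p = 0.0510), so 0 of 2 genes of chromatid separation fell in edgeR. Both were lower at an unadjusted p under 0.05 and in DESeq2, against 13.3% and 10.5% of all genes. ANLN, anillin of the cleavage furrow, had 19.3, 27.4 and 20.6 CPM at day 85, against 37.5, 38.2 and 46.4 CPM at day 45, and fell 1.82-fold (adjusted p = 0.0424). PLK4, the kinase that starts centriole duplication, had 11.3, 14.1 and 11.6 CPM at day 85, against 21.7, 23.4 and 25 CPM at day 45, a 1.89-fold fall (adjusted p = 0.0273). CDCA3, which takes part in the destruction of the CDK1 inhibitor WEE1, had 17.0, 23.3 and 15.7 CPM at day 85, against 39.1, 39.9 and 37.0 CPM at day 45, and fell 2.07-fold (adjusted p = 0.0287). CDCA7, a chromatin factor, had 23.9, 25.1 and 20.2 CPM at day 85, against 40.5, 32.1 and 36.4 CPM at day 45, and fell 1.58-fold (adjusted p = 0.0487). CENPJ, a centriole protein, and CENPV had overlapping ages (log2 fold changes -0.48 and -0.25, SE 0.28 and 0.21). These calls held without day 85 replicate 2, and ESPL1, CDCA5 and CENPJ fell as well. Without each other library none of the genes named in this paragraph passed in edgeR, the smallest adjusted p being 0.0714.

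**Figure D4:**
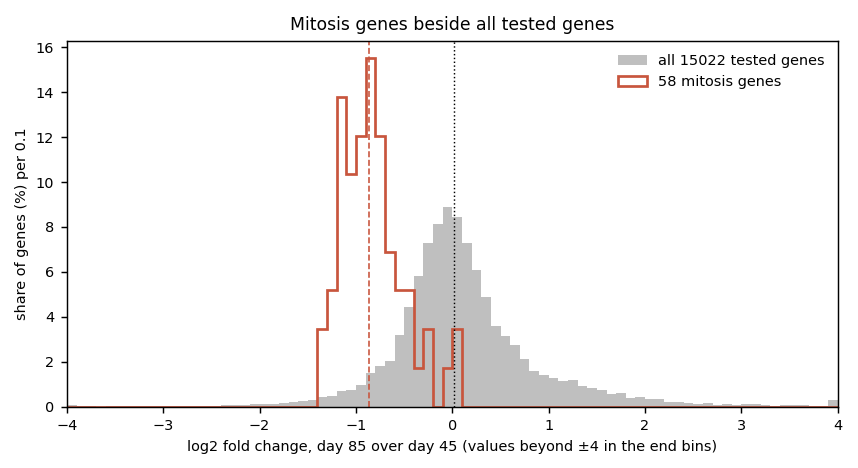
Share of genes (vertical axis, percent in each bin of 0.1) by log2 fold change, day 85 over day 45, for the 58 mitosis genes (outline) and all 15022 tested genes (grey). The medians, drawn as broken lines, are -0.86 and 0.02.

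Across the 58 genes the log2 fold changes had an SD of 0.33, against a median SE of 0.19. Their quartiles were -1.08 and -0.69, and 19 of the 58 had a value of -1 or lower, against 4.09% of all tested genes. The 25 genes past the threshold had a median of -1.05 with a median SE of 0.16, and the 33 others a median of -0.74 with a median SE of 0.21. Of these 33, 26 still had every day 85 library below every day 45 library, against 17.6% of all tested genes. A negative sign with an adjusted p from 0.05 to 0.1 was found for 22.

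Levels between genes can be compared per transcript length with the FPKM values that the authors deposited, which are scaled to library totals. The median over the 58 genes was 6.09 FPKM at day 85, against 12.1 FPKM at day 45. CENPB, whose row covers a far shorter stretch than that of its neighbour CDC25B, had the highest mean of the 58 at both ages, 74.3 FPKM at day 85, against 74.3 FPKM at day 45, followed at day 45 by TOP2A (20.7 FPKM at day 85, against 46.4 FPKM at day 45), CDCA4, a transcriptional regulator (24.5 and 45.5 FPKM), AURKB (20.5 and 45.4 FPKM) and KIF20A (18.5 and 41.6 FPKM). MKI67 had 6.67 FPKM at day 85, against 12.2 FPKM at day 45. CCNB3, a further B-type cyclin, and CENPI, of the inner centromere, were lowest at day 85, with 1.26 and 1.29 FPKM.

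Some of the 58 genes are close neighbours. The authors' table gives positions but the sources used here name no build. In these positions CDC25B (chr17:36244258-36254564) and CENPB (chr17:36263349-36263885) are 8.79 kb apart, and these 2 had the only positive signs of the 58. KIF20A (chr2:145901081-145910004) and CDC25C (chr2:145988074-146023662), 78.1 kb apart, had log2 fold changes of -1.13 and -1.06. CCNB1 and CENPH, 80.9 kb apart on chromosome 16, had -1.20 and -0.80, while CDCA3 and NCAPD2, 135 kb apart on chromosome 5, had -1.05 and -0.56.

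Gene Ontology terms in the table, chosen here after values were seen, were carried by many members: 35 of the 58 had mitotic cell cycle, 24 chromosome segregation and 19 kinetochore. Outside the 58, kinetochore marked 56 tested genes, of which 6 fell and 2 rose, with a median log2 fold change of -0.37. Chromosome segregation marked 155, of which 13 fell and 0 rose (median -0.21). The wider term mitotic cell cycle marked 435 others, of which 27 fell and 13 rose (median -0.09). The term microtubule motor activity marked 51 other genes, of which 2 fell and 0 rose (median 0.03). Cell division marked 223 others, of which 13 fell and 7 rose (median -0.07). Cell cycle marked 821, of which 47 fell and 26 rose (median -0.07). Condensed chromosome kinetochore marked 17, of which 2 fell and 0 rose (median -0.42). These sets can share genes with each other and with the rows and lists described below. Beside these counts, 2.66% of all tested genes fell and 3.9% rose.

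A further 12 rows carry a name of the same families only through a table of IDs and symbols. Of these, 2 fell and 0 rose, against 2.66% and 3.9% of all genes, with a median log2 fold change of -0.74. Every day 85 library lay below day 45 in 7, against 17.6% of all genes. TPX2, which activates the kinase Aurora A on the spindle, had 41.0, 64.3 and 48.9 CPM at day 85, against 102.9, 90.8 and 98.3 CPM at day 45 (1.89-fold lower, adjusted p = 0.0379). NDC80, the partner of NUF2, had 7.04, 8.33 and 5.41 CPM at day 85, against 16.3, 12.1 and 15.4 CPM at day 45 (2.11-fold lower, adjusted p = 0.0412). CENPC, a constitutive centromere scaffold, had 22.8, 24 and 20.2 CPM at day 85, against 24.2, 22.2 and 25.8 CPM at day 45, with overlapping ages like CENPB. CDC25A, the third phosphatase of its family, overlapped too (log2 fold change 0.06, SE 0.23). Of the 12, 7 fell without day 85 replicate 2, against 10% of all genes. Without each other library TPX2 and NDC80 did not pass, the smallest adjusted p being 0.0725 and 0.0955.

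Other genes of mitosis outside these families were lower as well. Of 45 listed genes 35 were tested, of which 14 fell and 0 rose, against 2.66% and 3.9% of all genes. All 35 had a negative sign and the median log2 fold change was -0.81. DESeq2 called 29 lower and 0 higher, against 10.5% and 12.2% of all genes. PIMREG, a mitotic regulator, had 18.9, 28.7 and 19.9 CPM at day 85, against 59.0, 59.7 and 50.2 CPM at day 45, and fell 2.5-fold (adjusted p = 0.0222). The mitotic kinase PBK fell 2.24-fold (adjusted p = 0.0335), and UBE2C, the ubiquitin carrier of the anaphase-promoting complex, fell 2.18-fold, with 32.0, 52.7 and 31.9 CPM at day 85, against 93.1, 85.2 and 75.8 CPM at day 45 (adjusted p = 0.0386). Without day 85 replicate 2, 22 of the 35 fell, against 10% of all genes, and without each other library 0 did in edgeR.

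Among transcription factors that act on mitotic promoters, 3 of 19 tested fell and 0 rose, against 2.66% and 3.9% of all genes, with a median log2 fold change of -0.29. DESeq2 called 5 lower and 1 higher, against 10.5% and 12.2% of all genes. In 10 of the 19 every day 85 library lay below day 45, against 17.6% of all genes. FOXM1, an activator of G2 and M phase genes, had 16.5, 24.4 and 20.7 CPM at day 85, against 35.2, 32.5 and 37.1 CPM at day 45, and fell 1.70-fold (adjusted p = 0.0467). The repressors E2F8 and E2F7, themselves made in cycling cells, fell 2.01-fold and 1.75-fold (adjusted p = 0.0473 and 0.0357). When day 85 replicate 2 was left out 6 fell and 1 rose, against 10% and 12.3% of all genes, and without each other library 0 passed.

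Of 15 genes of the anaphase-promoting complex, the ubiquitin ligase of mitotic exit, 0 passed in edgeR, where 2.66% of all genes fell. At an unadjusted p under 0.05, 5 were lower and 0 higher, against 13.3% lower among all, and DESeq2 called 4 lower and 0 higher, against 10.5% lower among all. Their median was -0.27, and in 10 of the 15 every day 85 library lay below day 45, against 17.6% of all genes. The activator FZR1 had 82.3, 98.6 and 90.3 CPM at day 85, against 97.0, 101.6 and 83.8 CPM at day 45. Of 12 cohesin genes 0 passed in edgeR, with a median of 0.07, against 0.02 for all genes. At an unadjusted p under 0.05, 1 was lower and 0 higher, against 13.3% lower among all. DESeq2 also called 1 lower and 0 higher, against 10.5% and 12.2% of all genes. RAD21, the cleavable cohesin subunit, had 193, 158 and 160.2 CPM at day 85, against 201, 200.2 and 73.9 CPM at day 45, where day 45 replicate 3 stood apart. When day 85 replicate 2 was left out, 2 genes of the anaphase-promoting complex and 1 of cohesin fell, against 10% of all genes.

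Kinesins that carry cargo, and their adaptors, had no common direction: of 19 tested, 9 had a negative and 10 a positive sign. The median was 0.03, and 2 fell and 0 rose, against 2.66% and 3.9% of all genes. DESeq2 called 4 lower and 3 higher, against 10.5% and 12.2% of all genes. KIF1A, picked after its values were seen, had the largest difference of the list and was higher in every day 85 library. It did not pass in edgeR (log2 fold change 2.39, SE 0.56, adjusted p = 0.0604) and passed in DESeq2 (adjusted p = 0.00228). KIF26B, a kinesin-like protein of developing tissue, had 2.63, 3.00 and 5.87 CPM at day 85, against 12.2, 10.03 and 13.7 CPM at day 45 (3.11-fold lower, adjusted p = 0.0418), and KIFAP3, an adaptor of the heterotrimeric cargo kinesin, fell 1.57-fold (adjusted p = 0.0290). With day 85 replicate 2 left out 2 fell and 3 rose, against 10% and 12.3% of all genes. Without each other library at most 1 fell, and the difference between both kinesin lists was not tested.

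Of 11 tested genes of G1 phase, 2 fell and 0 rose, against 2.66% and 3.9% of all genes, with a median of -0.36. DESeq2 called 4 lower and 0 higher, against 10.5% and 12.2% of all genes. CDT1, which licenses replication origins, fell 1.91-fold, with 16.1, 20.1 and 15.6 CPM at day 85, against 37.6, 30.8 and 30.6 CPM at day 45 (adjusted p = 0.0293). CDK4, the partner of the D cyclins, fell 1.58-fold, with 99.9, 129 and 96 CPM at day 85, against 171, 175.6 and 166.5 CPM at day 45 (adjusted p = 0.0462). Among 11 tested inhibitors of the cycle 2 rose and 0 fell, where 3.9% and 2.66% of all genes did. Their median was -0.08, with 7 negative and 4 positive signs. DESeq2 called 3 higher and 2 lower, against 12.2% and 10.5% of all genes. The listed inhibitor CDKN1A had 0 counts in every library. Its row lies on a scaffold outside the numbered chromosomes, and whether reads could be counted there was not checked. So the 0 does not show that its RNA was absent. Of the 16 listed inhibitors 2 had no row. CDKN1B, the CDK inhibitor p27, had 44.8, 39.9 and 37.1 CPM at day 85, against 24.9, 25.9 and 28.7 CPM at day 45, and rose 1.53-fold (adjusted p = 0.0431). BTG2, an antiproliferative factor, had 39.4, 37.6 and 32.4 CPM at day 85, against 23.1, 15.4 and 22.4 CPM at day 45, and rose 1.79-fold (adjusted p = 0.0479). Both were higher in every day 85 library. With library totals as the only scaling they kept their sign and lost the call (adjusted p = 0.0678 for CDKN1B and 0.0640 for BTG2), as they did with no filter on low counts (0.0506 and 0.0507). Without day 85 replicate 2, 3 G1 genes fell, and 3 inhibitors rose and 1 fell, where 10% of all genes fell and 12.3% rose. Without each other library no gene of these 2 lists passed in edgeR.

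**Figure D5:**
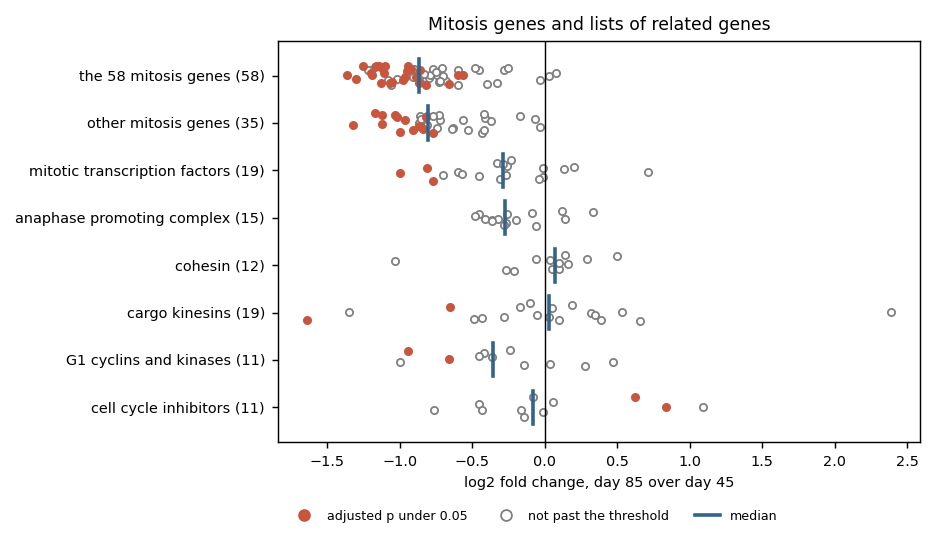
Log2 fold change, day 85 over day 45, of each tested gene in the 58 mitosis genes and in 7 lists of related genes (rows, number of tested genes in brackets); filled points have an adjusted p under 0.05 and bars are medians. The medians of the 58 genes and of other mitosis genes lie at -0.86 and -0.81, those of cohesin and cargo kinesins at 0.07 and 0.03.

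Markers of several cell types moved between the same libraries. For comparison, 2.66% of all tested genes fell and 3.9% rose in edgeR, and DESeq2 called 10.5% lower and 12.2% higher. Of 11 chondrocyte markers 3 fell and 0 rose, and DESeq2 called 8 lower. At an unadjusted p under 0.05, 9 were lower and 0 higher, against 13.3% lower among all. In 9 every day 85 library lay below day 45, against 17.6% of all genes. Their summed level ran from 1389 to 5329 CPM at day 85 and from 13223 to 16248 CPM at day 45. At day 85 it was highest in replicate 2. All 8 osteoclast markers had a positive sign, with 0 past the threshold in edgeR and 6 higher in DESeq2. They summed to 1874, 13384 and 2298 CPM in the day 85 libraries, against 287 to 1289 CPM at day 45. Of 7 tested skeletal muscle markers 0 passed the threshold in edgeR, and DESeq2 called 3 higher. They summed to 35897, 2700 and 31397 CPM at day 85, against 3867 to 8643 CPM at day 45. Of 6 endothelial markers 3 rose, and DESeq2 called 6 higher. They summed to 741 to 1214 CPM at day 85, against 216 to 436 CPM at day 45. Of 6 tested macrophage markers 4 rose, and DESeq2 called 6 higher. The macrophage list summed to 199.9 to 505 CPM at day 85, against 65.5 to 115 CPM at day 45.

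Of 5 tested erythroid markers 2 rose, and DESeq2 called 4 higher. The erythroid list summed to 592 to 2469 CPM at day 85, against 429 to 809.5 CPM at day 45. Osteoblast markers summed to 47077 to 83557 CPM at day 85, against 31948 to 49911 CPM at day 45. Of these 9 markers 0 passed the threshold in edgeR, and DESeq2 called 3 higher. With day 85 replicate 2 left out 9 chondrocyte markers fell, and 7 skeletal muscle, 6 endothelial, 4 macrophage, 3 erythroid, 2 osteoclast and 1 osteoblast markers rose. In that fit 10% of all genes fell and 12.3% rose. When each other library was left out in turn, at most 2 macrophage markers and 1 endothelial marker rose, and 0 markers of the other lists passed in edgeR. No marker with a row was at 0 in all libraries. Day 85 replicate 2, the day 85 library with the highest mitotic levels, was the highest or lowest of its age in all these lists. It had the most chondrocyte, osteoblast, osteoclast, erythroid and macrophage marker RNA of its age, and the least muscle and endothelial marker RNA. Replicates 1 and 3 differed as well. In day 85 replicates 1, 2 and 3 endothelial markers summed to 1214, 741 and 908 CPM, and chondrocyte markers to 1389, 5329 and 3076 CPM. The part of these cell types in the lower mitotic levels at day 85 was not tested.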

How the data were processed

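Total RNA of ground condyle tissue was depleted of ribosomal RNA, and the second cDNA strand was degraded, per the labels' protocols. The submitters' processing notes list HISAT2 and no version of it. No source used here gives the counter, whether it used strand, the annotation or the build. The authors deposited whole-number read counts and FPKM for 25322 Ensembl gene rows, per the file headers. For 10748 genes with at least 50 counts in each library, the deposited FPKM equalled count over library total times a factor per gene, with a largest relative deviation of 0.00179%.

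Members were rows whose table name matched the rule, 58 rows with 58 names. The members and lists were chosen with earlier results of these data known. The 14 lists hold 201 genes, of which 21 matched no row. Other names came from a table of IDs and symbols. Genes given in full were, for each of 10 role groups, the 3 largest changes past the threshold and the most abundant member, plus 9 standard markers: 29 genes. Library values of KIF4A, CENPA, CENPB, CENPQ, PLK1, CDC25C and the rows named by ID are given outside this rule, chosen after their values were seen.

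The deposited counts went into edgeR 4.0.16 (R 4.3.3), with filterByExpr by age (minimum count 10), TMM, robust dispersions, quasi-likelihood F test, age as the only factor, Benjamini-Hochberg adjustment, threshold 0.05. The SE is the log2 fold change over the square root of F. Alternatives were RLE scaling, library totals, no filter, DESeq2 1.42.0, each library left out, and the replicate number as a block. The tests were tried on simulated counts. No pair of libraries of one age was a duplicate (chi-square per degree of freedom 20.2 or more). No sequences are shown.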

Additional observations from a re-analysis of the deposited data

How the results depend on the processing

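The number of genes past the threshold depended on the libraries and the tool, while the direction of the mitosis genes did not reverse in any fit for their median. With RLE scaling, library totals, no filter and the replicate block, 31, 34, 32 and 17 of the 58 genes passed, against 25. DESeq2 gave 49 of the 58, 29 of the other mitosis genes against 14, and 3816 genes in all against 986. Leaving out 1 library at a time, 0 to 50 of the 58 passed, 0 to 22 of the other mitosis genes and 0 to 3412 of all genes, in each case highest without day 85 replicate 2; the median log2 fold change of the 58 ran from -1.03 to -0.78. Fits with 5 libraries have fewer degrees of freedom. Adding the 12 rows named by ID gave 27 genes past the threshold. The log2 fold change of CDC25B changed sign without day 85 replicate 1, running from -0.02 there to 0.15 without day 85 replicate 2.

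The deviations of same-numbered libraries from the mean of their age had correlations of 0.0346, 0.302 and 0.103 for numbers 1, 2 and 3. Day 85 replicates 2 and 3 correlated best with the day 45 library of their own number. Day 85 replicate 1 correlated best with day 45 replicate 3 (0.285). With 3 libraries for each age this cannot settle whether the numbers mark pairs, and they are not taken as pairs. The block moved all calls to 682 and those among the 58 to 17, and those of the other mitosis genes to 13. The lowest count of any of the 58 genes in a library was 15, and counting error was not compared with the spread between libraries.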
